A study of Mus musculus with 27 samples.

Results

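Nfkb1, Nfkb2 and Relb were the 3 NF-kB subunit genes with values among the 57 tested genes of a monocyte and macrophage panel. They were chosen by name and followed in donor cells from 27 recipient mice. CD11b+Ly6C+ monocytes from bone marrow of C57BL/6 WT mice were injected into C57BL/6 CCR2-/- recipients, and donor cells were recovered from the small intestine after 1, 2 or 5 days. In manipulated recipients the small intestine had been handled surgically 1 day before the transfer, and these mice gave 5, 4 and 4 samples at days 1, 2 and 5. Non-manipulated recipients had no surgery and gave 5, 5 and 4 samples. Both arms lacked CCR2 in the host cells and received WT monocytes. Surgery in the manipulated arm came with an anaesthetic (ketamine and xylazine), a midline cut and the painkiller Novalgin given by drinking water, which cannot be told apart here from the handling of the gut itself. The age of the mice was not given in the sources used here.

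NF-kB is a family of transcription factors that act as pairs. Nfkb1 and Nfkb2 encode long precursor proteins that are shortened into DNA-binding subunits, and the Nfkb2 precursor also holds RelB in the cytoplasm. Relb encodes a subunit with an activation domain that pairs with the shortened Nfkb2 product in the alternative branch of the pathway. In monocytes and macrophages, Toll-like receptors and inflammatory cytokine receptors release NF-kB from its inhibitors, and it then drives cytokine and chemokine genes. That step is a move of protein into the nucleus, so a transcript level is not a measure of NF-kB activity. The genes of the family are themselves known NF-kB targets, so promoter sequence is shown for the 1 member that the promoter table held, Nfkb2.

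The RefSeq promoter table (GRCm38.p6) held 3 start sites for Nfkb2, a gene on chromosome 19, plus strand. The 250 bases before the first of them (chr19:46304487-46304736) are printed with the matches to the NF-kB motif in capitals, the motif being 10 bases long and searched on both strands.
Nfkb2: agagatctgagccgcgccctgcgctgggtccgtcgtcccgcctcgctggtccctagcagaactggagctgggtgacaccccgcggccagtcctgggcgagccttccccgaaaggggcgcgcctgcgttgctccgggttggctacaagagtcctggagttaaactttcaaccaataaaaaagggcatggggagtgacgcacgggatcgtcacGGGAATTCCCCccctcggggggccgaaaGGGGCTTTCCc
The capitals hold 3 matches. GGGAATTCCC lies from -39 to -30 relative to the start and reads the same on both strands, GGAATTCCCC overlaps it by all but 1 base, and GGGGCTTTCC ends 2 bases before the start. The window of the second start held 2 matches, GGAATGTCCC from -236 to -227 and GGGACTTTCC from 10 to 19 bases after it, and the GGGACTTTCC also fell in the window of the third start. Of 32851 windows of 300 bases in the table, 8.46% held at least 1 match and 0.186% held at least 3. Among the 14 measured textbook NF-kB target genes, 10 had a window and 3 of these held a match (Il6, Cxcl1 and Cxcl10). Counted per gene in the same way, 6 of 36 tested genes with a window held a match (16.7%), as did 9.55% of all genes in the table. A match is a stretch of letters and not a measured binding site.

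Donor cells were sorted as CD11b+, CD11c lo/int and CD64+, and RNA of 100 cells per mouse was reverse transcribed, pre-amplified for 16 cycles and counted on the nCounter, which counts barcoded probes. The probes of all members spanned 100 bases of the transcript, from base 2126 to 2225 for Nfkb1 (chromosome 3), 1151 to 1250 for Nfkb2 and 2014 to 2113 for Relb (chromosome 7). Summed over the 57 tested genes, a sample had between 597997 and 1347007 counts. Levels are given as scaled counts, which are counts relative to the geometric mean of Actb, Gapdh and Rpl19, 3 housekeeping genes, in the same lane, brought back to counts with the average of that mean across lanes, 29098.5. These geometric means ran between 10838 and 41968 and were lowest in the non-manipulated day 5 group. Levels of different genes are not set against each other, because probes and primers differ. The 12 lanes of mice 3 and 4 held values multiplied by a constant, which was divided out, and they are given as a lane set of their own where they stood apart. All 9 measured monocyte and macrophage markers had lanes above background, 8 of them in all 27 samples and Ly6c1 in 22. Their summed level ran between 132989 and 422061 scaled counts in manipulated and between 222439 and 387398 in non-manipulated samples. The sum adds unlike probes and does not show single markers, which differed in both directions. At day 1, mean Cd14 was 99958 ± 21073 scaled counts in manipulated against 49833 ± 17719 in non-manipulated mice (SD). Mean Ly6c1 was 17203 ± 19972 against 9808 ± 12525, and its ranges overlapped widely (602 to 47249 and 1174 to 29887). Means of the other markers were lower in manipulated mice, such as Ccr2 at 20496 against 67764 and Csf1r at 13762 against 29536. Of the dendritic cell list, Ccr7, Flt3 and Zbtb46 were on the panel, but Flt3 and Zbtb46 were among the genes blank in all samples. Ccr7 stood at 921 to 11348 scaled counts in manipulated and 699 to 17885 in non-manipulated samples, and its part in the results was not tested. Markers of neutrophils, lymphocytes, epithelium and stroma were not analysed here. In such pools, fewer cells expressing a gene and less of its RNA per cell cannot be told apart. One sample stood apart for the members, manipulated day 2 mouse 1, with the lowest Nfkb1 and the highest Relb of all 27.

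Nfkb1 and Nfkb2 were read far above background, which was the mean plus 2 SD of the negative controls of a lane. Nfkb1 had 6280 to 49211 counts, at least 180-fold over background in every lane, and Nfkb2 had 1667 to 22673 counts, at least 97.4-fold over background. Relb was the least counted member, with 82 to 1229 counts, or 3.86 to 35.3 times background. Over the 27 mice the scaled counts spanned 8.58-fold for Nfkb1, 4.14-fold for Nfkb2 and 6.49-fold for Relb. The group means spanned far less, 1.82-fold, 2.01-fold and 1.81-fold for the same genes.

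At day 1, Nfkb1 had 22138, 45010, 24740, 23267 and 37104 scaled counts in manipulated mice 1 to 5, against 26742, 25491, 40192, 30962 and 39804 in non-manipulated mice 1 to 5. At day 2 it had 5288, 21142, 21860 and 23457 scaled counts in manipulated mice 1 to 4, against 13820, 18584, 25212, 20213 and 45349 in non-manipulated mice 1 to 5. At day 5 the levels were 42366, 41496, 16151 and 16822 scaled counts in manipulated mice 1 to 4, against 17898, 30763, 11431 and 37510 in non-manipulated mice 1 to 4. Mice with high and low Nfkb1 occurred in both arms, and the arms overlapped at every day. Equal mouse numbers in different groups stand for different mice. The group means were 30452 ± 10119, 17937 ± 8488 and 29209 ± 14697 scaled counts in manipulated mice at days 1, 2 and 5, and 32638 ± 7019, 24636 ± 12273 and 24401 ± 11872 in non-manipulated mice (SD, n as above). In order of the mean, non-manipulated day 1 was highest and manipulated day 2 lowest, and every step between neighbours in that order was smaller than the SD of either group.

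Nfkb2 varied less from mouse to mouse than Nfkb1, except in non-manipulated mice at day 1. There its SD was 44.0% of the mean, against 21.5% for Nfkb1. At day 1, manipulated mice 1 to 5 had 9748, 11220, 11892, 12750 and 17310 scaled counts, against 5576, 13126, 18518, 11042 and 8129 in non-manipulated mice 1 to 5. At day 2, manipulated mice 1 to 4 had 5863, 10238, 9230 and 8703 scaled counts, against 8966, 9277, 8901, 7600 and 10747 in non-manipulated mice 1 to 5. The arms overlapped at both days, and at day 1 every manipulated value lay within the range of the non-manipulated mice. At day 5, manipulated mice 1 to 4 had 7089, 9985, 11564 and 10782 scaled counts, against 6654, 4476, 5621 and 8305 in non-manipulated mice 1 to 4. Here 3 of 4 manipulated mice lay above all 4 non-manipulated mice, and mouse 1 lay within their range. Means were 12584 ± 2861, 8508 ± 1875 and 9855 ± 1954 scaled counts in manipulated mice at days 1, 2 and 5, and 11278 ± 4958, 9098 ± 1124 and 6264 ± 1626 in non-manipulated mice. Ordered by mean, both day 1 groups came first and non-manipulated day 5 last. The gap of that last group to its neighbour, manipulated day 2, exceeded the SD of both, whereas the other neighbours differed by less than the larger SD of the pair.

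Relb at day 1 had 817, 208, 404, 680 and 534 scaled counts in manipulated mice 1 to 5, against 248, 537, 401, 356 and 159 in non-manipulated mice 1 to 5. Day 2 gave 1035, 289, 330 and 256 scaled counts in manipulated mice 1 to 4, against 823, 634, 350, 305 and 221 in non-manipulated mice 1 to 5. Day 5 gave 261, 217, 583 and 832 scaled counts in manipulated mice 1 to 4, against 410, 220, 354 and 186 in non-manipulated mice 1 to 4. At each day 1 or 2 manipulated mice exceeded the highest non-manipulated mouse, while the remaining ones fell among them. The means were 529 ± 237, 477 ± 373 and 474 ± 289 scaled counts in manipulated mice at days 1, 2 and 5, and 340 ± 145, 467 ± 253 and 292 ± 106 in non-manipulated mice. All 3 manipulated groups stood above the non-manipulated groups in order of the mean, but neighbours in the order differed by less than their SD.

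**Figure D1:**
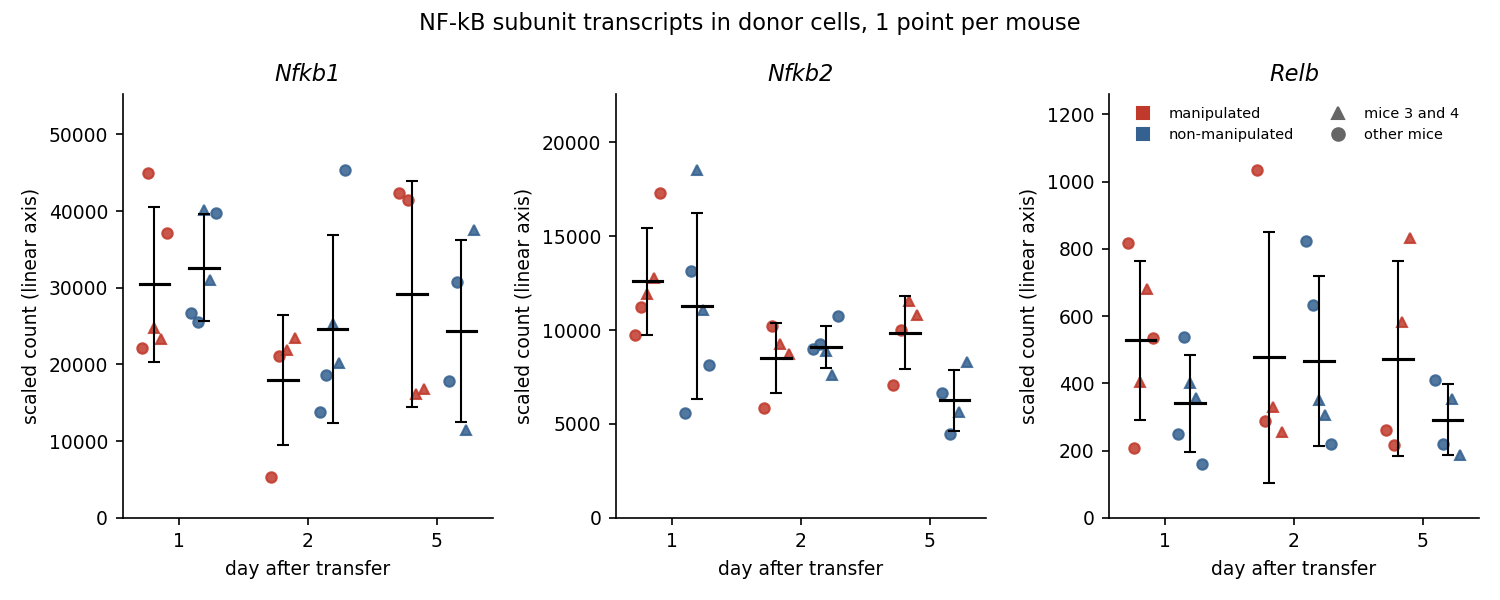
Scaled counts (linear axes) of Nfkb1, Nfkb2 and Relb by day after transfer, 1 point per mouse, manipulated in red to the left of non-manipulated in blue, triangles for mice 3 and 4, bars for mean ± SD. The arms overlap for every gene at every day, and manipulated day 2 mouse 1 is the lowest Nfkb1 point (5288) and the highest Relb point (1035).

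The first question was whether subunit transcripts of the arriving cells differed between a manipulated and a non-manipulated gut. By edgeR's quasi-likelihood F test with Benjamini-Hochberg adjustment over 57 genes, 0 of 3 members passed at day 1, where 42.1% of all tested genes passed. At day 2 the count was 0 of 3 beside 31.6%, and at day 5 0 of 3 beside 24.6%. Averaged over the days it was 0 of 3 beside 56.1%. At an unadjusted p under 0.05 the count was 0 of 3 in each of these comparisons too, beside 47.4%, 42.1% and 35.1% of the tested genes at days 1, 2 and 5 and 57.9% over the days. By DESeq2 at adjusted p it was 0 of 3, beside 43.9%, 40.4%, 31.6% and 56.1%. The groups also overlapped for all 3 members at each day, where 33.3%, 28.1% and 15.8% of the tested genes did not overlap at days 1, 2 and 5.

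The intervals give what the data allow. Nfkb1 differed between manipulated and non-manipulated mice by -0.10 on the log2 scale at day 1 (95% interval -0.94 to 0.74, adjusted p = 0.854), by -0.46 at day 2 (-1.35 to 0.44, adjusted p = 0.497) and by 0.26 at day 5 (-0.68 to 1.20, adjusted p = 0.698). Averaged over the days the difference was -0.10 (-0.62 to 0.42, adjusted p = 0.776), so that a shift of the average by 1 log2 unit in either direction lay outside the interval. The sign at days 1 and 2 depended on the scaling and turned positive with the authors' factor. Without manipulated day 2 mouse 1 the difference was -0.15 at day 2 and 0.0021 over the days.

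Nfkb2 differed between the arms by 0.16 at day 1 (95% interval -0.44 to 0.76, adjusted p = 0.666) and by -0.10 at day 2 (-0.74 to 0.54, adjusted p = 0.843). The largest Nfkb2 difference between arms was at day 5, at 0.65 ± 0.33 (SE, 95% interval -0.02 to 1.33). Its adjusted p was 0.156 by edgeR. The median of all tested genes at day 5 was 0.59 in the same direction, so that Nfkb2 stood 0.07 above it. Averaged over the days the Nfkb2 difference was 0.24 (-0.13 to 0.61, adjusted p = 0.266), which was itself the median of the panel. With the total count as scaling it was 0.09 (adjusted p = 0.714 by edgeR). The average passed the test under 3 alternatives, at 0.46 with scaling without Rpl19 and at 0.74 and 0.75 with the authors' factor and the authors' normalized values, and the panel median moved along, to 0.46 without Rpl19 and 0.66 with the authors' factor. Of the 57 tested genes, 25 rose and 11 fell without Rpl19, and 26 rose and 7 fell with the authors' factor.

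Relb differed between the arms by 0.64 at day 1 (95% interval -0.39 to 1.66, adjusted p = 0.320), by 0.03 at day 2 (-1.05 to 1.12, adjusted p = 0.976) and by 0.69 at day 5 (-0.45 to 1.84, adjusted p = 0.387). Over the days the mean difference was 0.45 (-0.17 to 1.08, adjusted p = 0.217), which was 0.22 above the panel median. Without manipulated day 2 mouse 1 it was 0.22, and at day 2 the Relb difference was then -0.68 (adjusted p = 0.383 by edgeR). With that mouse the average over the days was 0.32 with the total count (adjusted p = 0.444 by edgeR), and it passed under the 3 alternatives named for Nfkb2, at 0.66, 0.89 and 0.85. Thus 2 of 3 members rose, beside 43.9% of the tested genes without Rpl19 and 45.6% with the authors' factor. With all mice, a Relb difference of 1 log2 unit lay inside the interval at each day and over the days. The day 5 value differed by lane set, at 1.39 in mice 3 and 4 (adjusted p = 0.0401 by edgeR) and -0.40 in the other lanes (adjusted p = 0.805), with 2 mice per arm in each set.

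**Figure D2:**
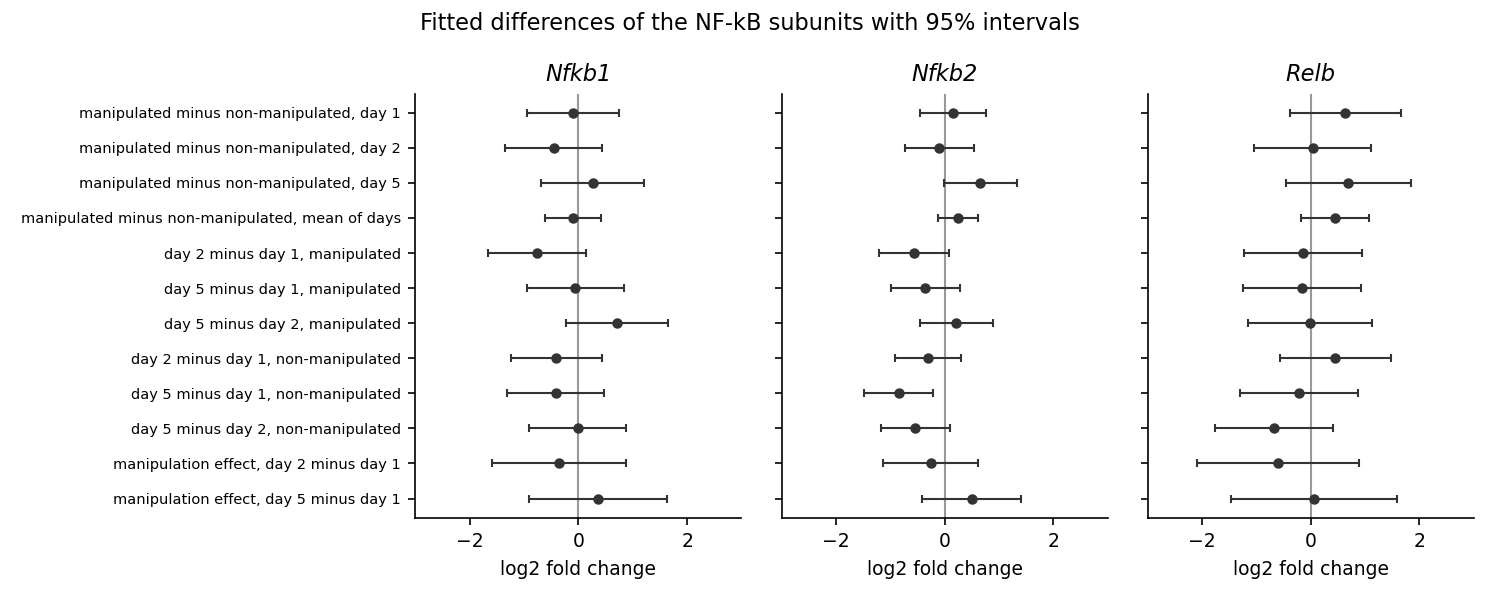
Log2 fold change (x axis) of each member in 12 comparisons (rows), points for the edgeR estimate and bars for its 95% interval, with 0 as a vertical line. All intervals cross 0 except Nfkb2 at day 5 minus day 1 in non-manipulated mice (-1.49 to -0.21).

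The second question was whether the subunits changed as the cells spent time in the tissue. In non-manipulated mice, 0 of 3 members passed at day 5 against day 1, beside 19.3% of the tested genes. At an unadjusted p under 0.05 it was 1 of 3, Nfkb2, beside 33.3% of the tested genes, and by DESeq2 1 of 3 beside 31.6%, so that both counts lay at the share of the panel. Nfkb2 was nearest, with 6264 ± 1626 scaled counts at day 5 and 11278 ± 4958 at day 1 (SD, n = 4 and 5). The log2 difference was -0.85 ± 0.31 (SE, 95% interval -1.49 to -0.21), with an adjusted p of 0.0556 by edgeR. The highest day 5 mouse had 8305 scaled counts, and 2 of the 5 day 1 mice, at 5576 and 8129, lay in the same range as the day 5 mice. By DESeq2 on the same housekeeping scaling the adjusted p was 0.0206, and by limma on log2 values of the authors' normalized scores it was 0.0368. Without mouse 3 of day 1, the highest at 18518 scaled counts, the difference was -0.60 (adjusted p = 0.195), and without mouse 1 of day 1 it was -1.02 (adjusted p = 0.0224). Without mouse 5 of day 1 it was -0.95 (adjusted p = 0.0332). Relative to the panel median, it was -0.78 with housekeeping scaling, -0.74 with the total count and -0.78 with the authors' factor.

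In manipulated mice, Nfkb2 differed by -0.35 between days 5 and 1 (95% interval -0.99 to 0.29, adjusted p = 0.404), and 0 of 3 members passed beside 40.4% of the tested genes. The difference of the manipulation effect between day 5 and day 1 was 0.50 ± 0.44 for Nfkb2 (SE, adjusted p = 0.427 by edgeR), so that the course of Nfkb2 was not shown to differ between the arms. For the same difference 0 of 3 members passed beside 19.3% of the tested genes. The manipulation effect at day 2 minus that at day 1 gave 0 of 3 beside 7.02%. In these 3 comparisons the count was also 0 of 3 at an unadjusted p under 0.05, beside 43.9%, 29.8% and 19.3% of the tested genes, and by DESeq2, beside 42.1%, 17.5% and 8.77%.

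In the remaining steps no member passed the test by edgeR or DESeq2, nor at an unadjusted p under 0.05. At that unadjusted p stood 17.5% (day 2 against 1) and 24.6% (day 5 against 2) of the tested genes in manipulated mice, and 26.3% and 24.6% in non-manipulated mice. DESeq2 called 8.77% and 12.3% in manipulated mice, and 15.8% and 15.8% in non-manipulated mice. In manipulated mice, day 2 against day 1 gave -0.76 for Nfkb1 (95% interval -1.66 to 0.13), -0.56 for Nfkb2 (-1.20 to 0.07) and -0.15 for Relb (-1.23 to 0.94), and 0 of 3 passed beside 1.75% of the genes. Day 5 against day 2 in manipulated mice gave 0.70, 0.21 and -0.01 for Nfkb1, Nfkb2 and Relb, with 0 of 3 beside 5.26%. Without manipulated day 2 mouse 1, day 2 against day 1 was -0.46 for Nfkb1 and -0.86 for Relb, and day 5 against day 2 was 0.40 and 0.70. In non-manipulated mice, day 2 against day 1 gave -0.41, -0.31 and 0.45 for these genes, with 0 of 3 beside 14%, and day 5 against day 2 gave -0.01, -0.54 and -0.67, with 0 of 3 beside 12.3%. The days overlapped for all members in both arms. Among all tested genes 10.5%, 26.3% and 8.77% did not overlap in manipulated mice (day 2 against 1, 5 against 1 and 5 against 2), and 10.5%, 21.1% and 10.5% in non-manipulated mice.

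Other genes of the pathway on the panel passed the test. Of 8 listed receptors and adaptors upstream of NF-kB, 3 rose and 1 fell in manipulated against non-manipulated mice at day 1. Their median difference was 0.79 beside -0.08 over all tested genes, of which 24.6% rose and 17.5% fell. The list left out Tlr8, another Toll-like receptor gene among the tested genes. Trem1, a receptor that amplifies Toll-like receptor responses, rose by 2.05 ± 0.49 (log2, SE, adjusted p = 0.00197). Cd14, the co-receptor for bacterial lipopolysaccharide, rose by 1.00 ± 0.25 (adjusted p = 0.00217), and Tlr4, its signalling partner, by 1.11 ± 0.41 (adjusted p = 0.0375). Card9, the adaptor of C-type lectin receptors, fell by 0.95 (SE 0.37, adjusted p = 0.0464), which was not called without Rpl19 or with the authors' factor. Tlr4 was not called with the total count (0.80, adjusted p = 0.153 by edgeR). Over the scalings the counts were 2 higher and 1 lower with the total count, 5 and 0 without Rpl19 and 4 and 0 with the authors' factor. The upstream genes not called were Tlr1 at -0.33, Tlr2 at 0.45, the intracellular peptidoglycan sensor Nod2 at 0.78 and the adaptor Traf6 at 0.79. At day 2 only Trem1 of these 8 passed (1.41 ± 0.52, adjusted p = 0.0410 by edgeR), a call lost with the total count as scaling, and at day 5 only Cd14 (1.06 ± 0.28, adjusted p = 0.00650). These counts of 1 of 8, or 12.5%, stood beside 14% of all tested genes higher at day 2 and 17.5% at day 5, close to the share of the panel.

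Of 14 textbook NF-kB target genes with values, 9 rose and 0 fell at day 1 in manipulated against non-manipulated mice, beside 24.6% and 17.5% of all tested genes. Their median difference was 1.89 beside -0.08. The counts were 9 and 1 with the total count, and 10 and 0 without Rpl19 or with the authors' factor. Nos2 and Csf2 of the list were on the panel but blank. The list was written with earlier results known. It left out the 3 subunit genes, themselves known NF-kB targets, of which 0 were called at day 1. The 3 with the smallest adjusted p were the cytokine gene Il1a (4.07 ± 0.37, adjusted p = 3.48e-08 by edgeR), the neutrophil chemokine gene Cxcl1 (3.90 ± 0.40, adjusted p = 1.83e-07) and the monocyte chemokine gene Ccl2 (2.80 ± 0.34, adjusted p = 7.28e-07). At day 2, 4 rose and 2 fell, beside 14% and 17.5% of all tested genes, the falling ones being the transcription factor gene Irf4 and the chemokine gene Ccl22. With the authors' factor 5 rose and 0 fell, and Irf4 was at -1.49 (adjusted p = 0.0587 by edgeR) and Ccl22 at -1.72 (adjusted p = 0.0613). At day 5, 3 rose and 0 fell, beside 17.5% and 7.02% of all tested genes, and these were Il1a, Cxcl1 and Ccl2 once more. The subunit genes, with differences of -0.10 to 0.64 at day 1, stood beside target genes with differences of -1.07 to 7.02. The panel was put together by the study to cover monocyte and macrophage states, so these shares describe this panel only. Rela and Rel were not analysed here, nor was any of 8 listed inhibitor and feedback genes such as Nfkbia and Tnfaip3.

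In manipulated mice at day 5 against day 1, 4 of 14 target genes fell and 0 rose, with the cytokine gene Il6 at -4.21 ± 0.60 (adjusted p = 0.000176 by edgeR), and of the upstream genes 2 rose (Card9, Cd14) and 2 fell (Trem1, Nod2), beside 22.8% and 17.5% of all tested genes. The rises of Card9 and Cd14 were not called without Rpl19 or with the authors' factor, and that of Cd14 was not called with the total count either. In non-manipulated mice, 4 of 14 target genes rose and 0 fell over the same days, beside 10.5% and 8.77% of all tested genes, and 2 rose with the total count or the authors' factor. The members stood at -0.06, -0.35 and -0.16 in manipulated and at -0.42, -0.85 and -0.22 in non-manipulated mice for Nfkb1, Nfkb2 and Relb.

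**Figure D3:**
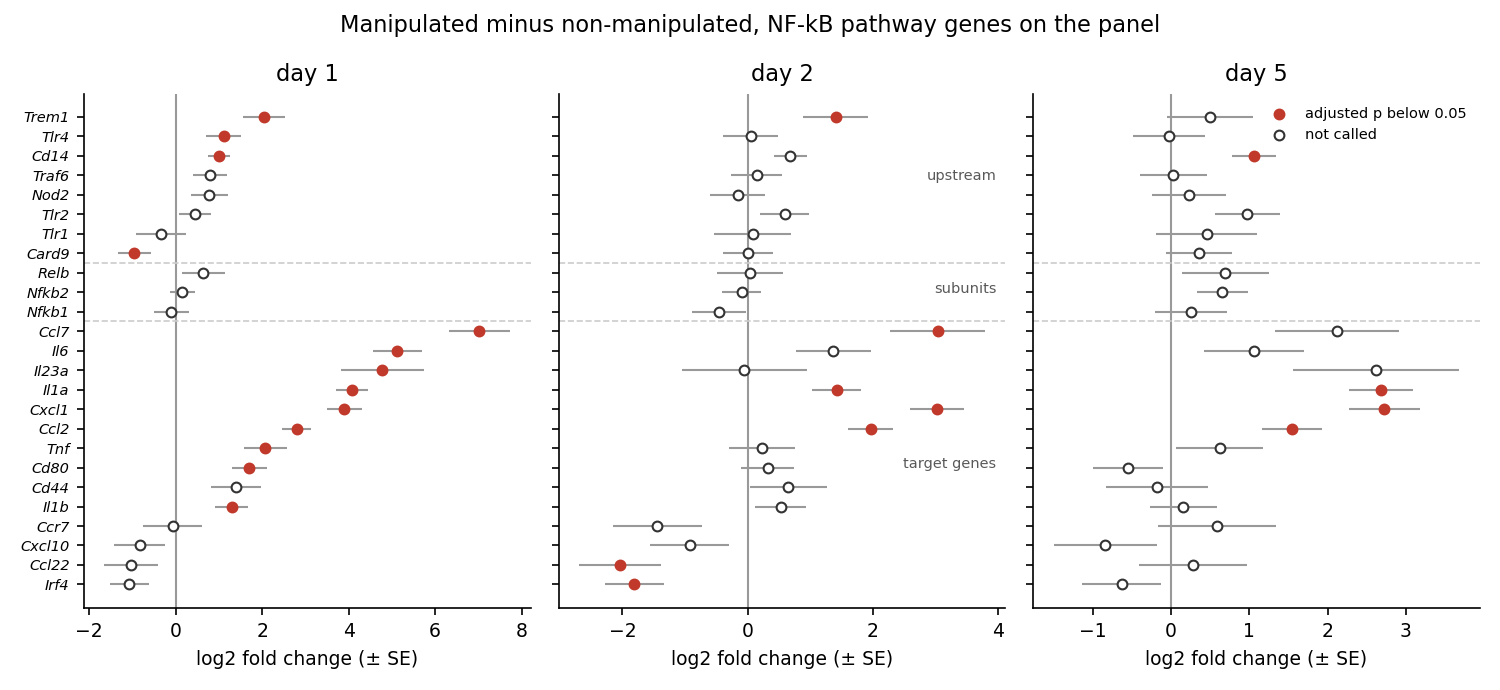
Log2 fold change of manipulated minus non-manipulated mice (x axis, ± SE) at days 1, 2 and 5 for 8 upstream genes, the 3 subunits and 14 target genes (rows), filled red where adjusted p was below 0.05. At day 1 target genes reach 7.02 (Ccl7), whereas the subunits lie between -0.10 and 0.64 and none is filled at any day.

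Among themselves the members varied in different ways. The spread within groups, as the SD of log2 scaled counts, was 0.71 for Nfkb1, 0.39 for Nfkb2 and 0.78 for Relb, beside a panel median of 0.89. Nfkb2 ranked 54 of 57 by this spread over all groups and was thus among the steadiest genes of the panel, with Nfkb1 at rank 36 and Relb at rank 32. The spread of Nfkb2 was widest in non-manipulated mice at day 1. Relb and Nfkb1 ran opposite to each other over the 27 samples, with Pearson's r = -0.68 and Spearman's rho = -0.69 on log2 scaled counts. On deviations from the group means r was -0.84. Within manipulated mice r was -0.71 (13 samples) and within non-manipulated mice -0.65 (14 samples). Both genes of a pair share the lane and its housekeeping scaling. Without manipulated day 2 mouse 1, r was -0.61, and without the 2 samples farthest from the median Nfkb1 it was -0.69. It was -0.40 in the 12 lanes of mice 3 and 4 and -0.78 in the other 15, -0.54 with scaling to the total count and -0.09 for unscaled counts, so that its size depended on the scaling.

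The ratio of 2 genes within a lane holds no scaling. The log2 ratio of Relb to Nfkb1 counts ran between -7.96 in non-manipulated day 1 mouse 5 and -2.35 in manipulated day 2 mouse 1. The next sample after manipulated day 2 mouse 1 was non-manipulated day 2 mouse 1, at -4.07. Group means were -5.93 ± 1.17, -5.28 ± 1.96 and -6.01 ± 1.68 in manipulated mice at days 1, 2 and 5, and -6.67 ± 0.86, -5.77 ± 1.38 and -6.31 ± 1.28 in non-manipulated mice (SD). At each day these means differed between the arms by less than 1 SD of either group, and the groups overlapped. At manipulated day 5, the 4 mice fell apart by lane set, with Nfkb1 at 16151 and 16822 scaled counts in mice 3 and 4 against 42366 and 41496 in mice 1 and 2, and Relb at 583 and 832 against 261 and 217. Whether the lane set had a part in the opposition was not tested beyond the values within each set.

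Nfkb2 took no clear side. Its r was 0.36 with Nfkb1 and 0.24 with Relb over the 27 samples, and the first was 0.13 without the 2 samples farthest from the median Nfkb1. With scaling to the total count the r with Nfkb1 and with Relb were 0.35 and 0.46, and for unscaled counts 0.62 and 0.64, so that their size depended on the scaling. The log2 ratio of Nfkb2 to Nfkb1 averaged -1.24 ± 0.44, -0.89 ± 0.71 and -1.44 ± 1.04 in manipulated mice at days 1, 2 and 5, and -1.62 ± 0.63, -1.32 ± 0.55 and -1.85 ± 0.78 in non-manipulated mice (SD). The ratio of Relb to Nfkb2 averaged -4.69 ± 0.83, -4.39 ± 1.26 and -4.57 ± 0.77 in manipulated mice, and -5.05 ± 0.53, -4.45 ± 0.83 and -4.46 ± 0.70 in non-manipulated mice. All these groups overlapped at each day.

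**Figure D4:**
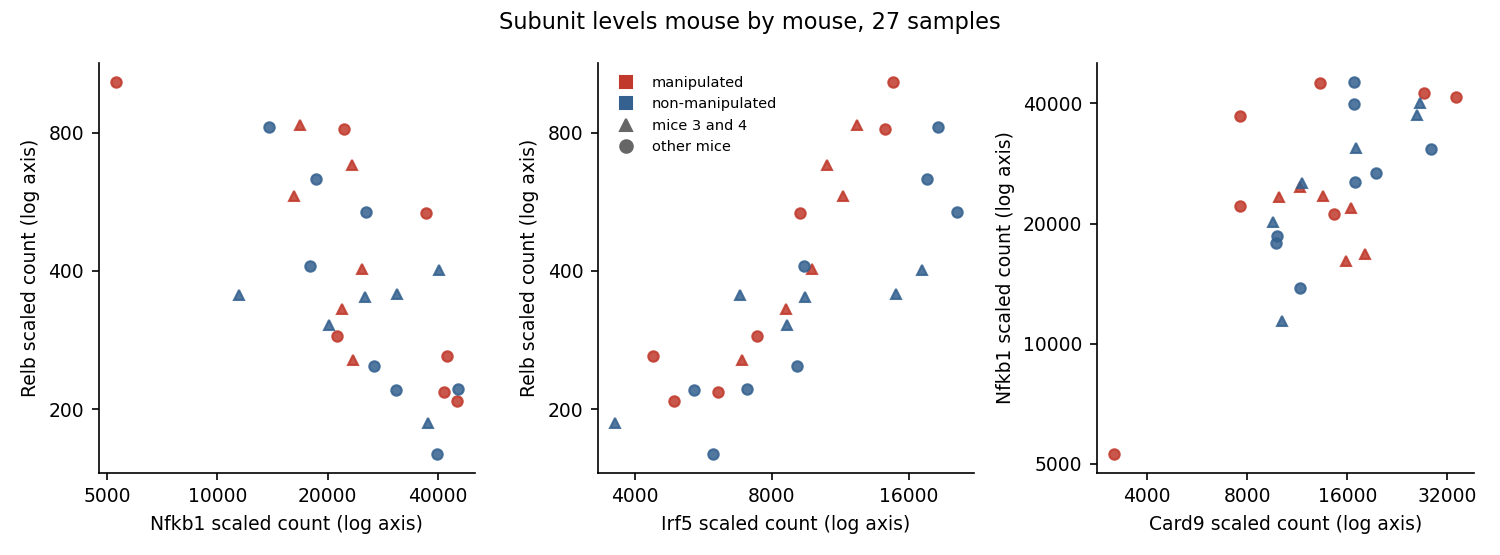
Scaled counts (log axes) of Relb against Nfkb1, Relb against Irf5 and Nfkb1 against Card9, 1 point per sample, red for manipulated and blue for non-manipulated mice, triangles for mice 3 and 4. Relb runs against Nfkb1 (r = -0.68) and with Irf5 (r = 0.80), over 27 samples.

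The genes whose levels most resembled each member over the 27 samples were ranked by Pearson's r. For Relb these were Irf5, a transcription factor of inflammatory macrophages (r = 0.80), the co-stimulatory gene Cd86 (0.78) and Cebpb, a transcription factor of the myeloid lineage (0.77). On deviations from group means they were 0.94, 0.81 and 0.92. Nfkb1 ran against these 3 genes too, at -0.47, -0.58 and -0.38, so that its opposition was not particular to Relb. On deviations from group means these r of Nfkb1 were -0.74, -0.64 and -0.73. In the lanes of mice 3 and 4 they were 0.06, -0.40 and 0.08. Nfkb1 and Card9 ran most opposite to Relb (-0.68 and -0.62). The r of Relb with Card9 was -0.17 in the lanes of mice 3 and 4 and -0.77 in the other lanes. For unscaled counts it was -0.20. For Nfkb1 the most alike were Card9 (0.69), Traf6 (0.66) and Spi1, the master transcription factor of myeloid cells (0.66), and the least alike were Tlr1 (-0.69) and Relb. Without the 2 samples farthest from the median Nfkb1 these 3 values were 0.49, 0.59 and 0.41, so that they rested in part on those samples. For Nfkb2 the most alike were Cebpb at 0.51, Nod2 at 0.50 and Trem1 at 0.50. These values were 0.69, 0.68 and 0.60 with scaling to the total count, and 0.21, 0.23 and 0.30 on deviations from group means. In the lanes of mice 3 and 4 they were 0.75, 0.79 and 0.67, and in the other lanes 0.39, 0.48 and 0.39. The least alike were the interferon-induced chemokine gene Cxcl10 at -0.50 and Ccl22 at -0.40. Within the lane sets the r of Relb with Irf5 was 0.66 in mice 3 and 4 and 0.86 in the other lanes, and that of Nfkb1 with Card9 was 0.60 and 0.74.

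In manipulated day 2 mouse 1, with the highest ratio of Relb to Nfkb1, Irf5 had 14767 and Cebpb 20566 scaled counts, and Card9 had 3186 and Spi1 22597. In non-manipulated day 1 mouse 5, with the lowest ratio, Irf5 had 5939 and Cebpb 2640 scaled counts, and Card9 had 16818 and Spi1 82718. The housekeeping geometric means of these samples were 34559 and 27566, both within the range of the other lanes. Over all 27 samples, log2 Nfkb1 and log2 Relb had r of -0.15 and 0.29 with the log2 housekeeping geometric mean, and Nfkb2 had 0.40.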

How the data were processed

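Counts of barcoded probes came from the raw nCounter table, which the authors deposited without normalizing it. Of 67 panel genes, 10 were blank in all samples and 57 were tested. The study states that it excluded 10 genes because they were poorly detected in every sample. The shares of all tested genes do not cover the blank genes. The 12 lanes of mice 3 and 4 were deposited as non-whole values, treated as estimated counts, that were whole multiples of 1.333 within 0.001, and manipulated day 1 mouse 5 was doubled; both multipliers were divided out, and the reason for them is not given in the sources used here. The authors' normalized table held a score per gene, the raw value times 1 housekeeping factor per sample (0.407 to 3.34), and served as an alternative.

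All 27 samples, each from a separate mouse, entered 1 fit with 6 group means by the quasi-likelihood F test of edgeR 4.0.16 under R 4.3.3. The housekeeping geometric mean served as library size, the common BCV (coefficient of variation between samples) was 0.685, and 21 degrees of freedom remained. Each mouse gave 1 lane, so variation between mice cannot be told apart from that of sorting, pre-amplification and lane. Adjustment was over 57 genes, with a threshold of 0.05. DESeq2 1.42.0 and limma 3.58.1 (pseudocount 1 or 50) were alternatives, beside other scalings, filters, blocks and left-out mice. The fit was run on counts simulated from its own model, with arm differences only and no effect of lane set or experiment. That run cannot show how the fit does where such effects are present. The mice came from several pooled experiments, which the labels do not tie to mice. The members and gene lists were chosen with earlier results of these data known. Named genes were the members, every gene of the upstream list, and up to 3 called genes per list and direction with the smallest adjusted p. The 3 most and 2 least correlated genes per member were named too. Ccl7 in the pathway plot, Ccl22, Irf4, the genes holding promoter matches and the single cell markers were named after their values were seen. Correlations and ratios are descriptions without tests, and correlations of unscaled counts, of deviations from group means and without manipulated day 2 mouse 1 were added after seeing the data.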

Additional observations from a re-analysis of the deposited data

Results flagged for a closer look

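Of 18 sets of values (3 members in 6 groups), 2 held a sample far from the rest of its group, by Dixon's ratio of the gap to the range, which chance exceeds in about 1 in 20 groups. Both were manipulated day 2 mouse 1. Its Nfkb1 level was 5288 scaled counts, the next in the group being 21142, with a gap of 0.873 of the range. Its Relb level was 1035 scaled counts, the next being 330, with a gap of 0.904 of the range. Both values come from 1 lane, so they are not independent.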

How the results depend on the processing

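Across 36 member differences and 17 other settings, 538 of 609 values kept the sign and the side of the threshold, 13 newly passed and 58 changed sign. With single mice left out it was 400, 2 and 33 of 435. None of the values that changed sign passed the test. The causes were not tested. The difference over the days could not be given in the fit of only the groups compared. Relb, with the fewest counts, and groups of 4 or 5 mice limit what can be seen.

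Nfkb2 in non-manipulated mice at day 5 minus day 1 was called at -0.85 by DESeq2 with housekeeping size factors, -0.67 by DESeq2 with its own size factors, -1.09 in the lanes of mice 3 and 4, -1.31 with the authors' normalized values in limma, -1.42 with the authors' factor and -1.24 with the total count. Adjusted p over all settings ran between 0.0107 and 0.715. For these days, 19 of the 57 tested genes were called in the lanes of mice 3 and 4. With the total count 3 tested genes rose and 8 fell. The Nfkb2 difference between arms over the days was called at 0.46 without Rpl19, 0.74 with the authors' factor and 0.75 with the authors' normalized values, and that of Relb at 0.66, 0.89 and 0.85. Relb between arms at day 5 was called at 1.39 in the lanes of mice 3 and 4, where 24 of the 57 tested genes were called.

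Changes of sign were as follows. The other lanes alone gave 0.27 for Nfkb1 manipulated day 5 minus 1, 0.18 for Nfkb1 between arms at day 1, 0.11 for Nfkb2 non-manipulated day 2 minus 1, 0.35 for Relb manipulated day 2 minus 1, 0.0026 for Relb non-manipulated day 5 minus 1, -0.40 for Relb between arms at day 5 and -1.12 for Relb manipulation effect day 5 minus 1. The lanes of mice 3 and 4 alone gave -0.46 for Nfkb1 manipulated day 5 minus 2, 0.11 for Nfkb1 non-manipulated day 5 minus 2, -0.57 for Nfkb1 between arms at day 5, 0.56 for Nfkb1 manipulation effect day 2 minus 1, -0.0020 for Nfkb1 manipulation effect day 5 minus 1, -0.26 for Nfkb2 between arms at day 1, 0.12 for Nfkb2 between arms at day 2, 0.38 for Nfkb2 manipulation effect day 2 minus 1, -0.21 for Relb non-manipulated day 2 minus 1, 0.38 for Relb manipulated day 5 minus 1, 1.27 for Relb manipulated day 5 minus 2 and -0.16 for Relb between arms at day 2. DESeq2 with its own size factors gave 0.14 for Nfkb1 non-manipulated day 5 minus 2, -0.051 for Nfkb2 manipulated day 5 minus 2 and -0.29 for Relb manipulation effect day 5 minus 1. The lane set as a block gave 0.0089 for Nfkb1 non-manipulated day 5 minus 2 and 0.016 for Relb manipulated day 5 minus 2. Scaling without Rpl19 gave 0.026 for Nfkb1 non-manipulated day 5 minus 2, 0.14 for Nfkb1 between arms at day 1, 0.12 for Nfkb1 between arms over the days, -0.036 for Nfkb2 manipulated day 5 minus 2, 0.25 for Nfkb2 between arms at day 2 and -0.11 for Relb manipulation effect day 5 minus 1. The authors' normalized values in limma gave 0.43 for Nfkb1 between arms at day 1, 0.34 for Nfkb1 between arms over the days, -0.33 for Nfkb2 manipulated day 5 minus 2, 0.40 for Nfkb2 between arms at day 2 and -0.25 for Relb manipulation effect day 5 minus 1. The authors' factor gave 0.47 for Nfkb1 between arms at day 1, 0.066 for Nfkb1 between arms at day 2, 0.35 for Nfkb1 between arms over the days, -0.34 for Nfkb2 manipulated day 5 minus 2, 0.41 for Nfkb2 between arms at day 2 and -0.16 for Relb manipulation effect day 5 minus 1. TMM scaling gave 0.010 for Nfkb2 non-manipulated day 2 minus 1, -0.090 for Nfkb2 manipulated day 5 minus 2, 0.18 for Relb manipulated day 2 minus 1 and -0.26 for Relb manipulation effect day 5 minus 1. Scaling to the total count gave -0.19 for Nfkb2 manipulated day 5 minus 2, -0.12 for Nfkb2 between arms at day 1 and 0.17 for Relb manipulated day 2 minus 1. Scaled counts in limma gave 0.032 for Relb manipulated day 5 minus 2, -0.058 for Relb between arms at day 2 and -0.054 for Relb manipulation effect day 5 minus 1. A pseudocount of 50 in limma gave 0.031 for Relb manipulated day 5 minus 2, -0.048 for Relb between arms at day 2 and -0.045 for Relb manipulation effect day 5 minus 1.

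The mouse numbers were not used as pairs in the main fit. Of 13 same-numbered pairs, 5 had deviations correlated above 0.1 (r between -0.32 and 0.39), and 4 samples correlated best with their own number. So few pairs cannot decide whether the numbers mark a shared experiment, and mice 3 and 4 shared a multiplier in every group. The replicate block gave 0.14 for Nfkb1 manipulated day 5 minus 1, 0.16 for Nfkb1 non-manipulated day 5 minus 2, 0.17 for Relb manipulated day 5 minus 2 and -0.17 for Relb between arms at day 2. With the block Nfkb2 in non-manipulated mice at day 5 minus day 1 was -0.75 (adjusted p = 0.0885 by edgeR). The block changed no call of a member.

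Leaving out single mice gave -0.29 to 0.14 for Nfkb1 manipulated day 5 minus 1, -0.30 to 0.33 for Nfkb1 non-manipulated day 5 minus 2, -0.18 to 0.014 for Nfkb1 between arms over the days, -1.02 to -0.60 for Nfkb2 non-manipulated day 5 minus 1, -0.014 to 0.41 for Nfkb2 between arms at day 1, -0.20 to 0.046 for Nfkb2 between arms at day 2, -0.86 to 0.064 for Relb manipulated day 2 minus 1, -0.58 to 0.080 for Relb manipulated day 5 minus 1, -0.42 to 0.0076 for Relb non-manipulated day 5 minus 1, -0.43 to 0.70 for Relb manipulated day 5 minus 2, -0.68 to 0.34 for Relb between arms at day 2 and -0.36 to 0.30 for Relb manipulation effect day 5 minus 1. Upstream genes called between arms numbered 0 at day 2 with the total count and 2 without Rpl19 or with the authors' factor, beside 1. The count of all genes called at day 2 between arms was 18, and 3 to 23 over the settings. At day 5 it was 14, and 7 to 24.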
